A study of Mus musculus with 24 samples.

Results

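Excitatory and inhibitory neurons of the mouse cortex were compared across all genes, as the cells that a Camk2a-Cre or a Gad2-Cre driver marks. The comparison rests on 4 of the 24 libraries of the series, namely the 2 made from cortex of Camk2a-Cre; Ctag-PABP mice and the 2 made from cortex of Gad2-Cre; Ctag-PABP mice. All 4 come from mice with the Ctag-PABP allele, in which Cre activity turns on a poly(A)-binding protein that carries GFP. In all 4 that protein was recovered with anti-GFP antibodies by cTag-PAPERCLIP. PAPERCLIP crosslinks mRNA to the poly(A)-binding protein in the tissue and sequences the fragments next to the poly(A) tail, so a count stands for an mRNA 3' end in the marked cells. A further 2 Gfap-Cre cortex libraries and 2 untreated Cx3cr1-Cre brain libraries entered the fit only to estimate the spread between replicates.

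The Camk2a promoter is active mainly in excitatory neurons of the forebrain and the Gad2 promoter in GABA neurons. A Cre driver marks each cell in which it has ever been active, not only those in which it is active at harvest. The labels give the driver line, the tissue and a replicate number. Age, sex and strain are not stated in the sources used here. Nor do the labels say that the replicates came from separate animals, so a p-value here measures how far the libraries spread, and that spread may be technical. The libraries are bulk, so fewer marked cells of a type and less of an mRNA per cell cannot be told apart.

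Excitatory cortical neurons release glutamate, mostly project to other areas or layers, and receive much of their excitatory input on dendritic spines. Inhibitory neurons of the cortex make GABA from glutamate with glutamate decarboxylase, mostly act locally, and fall into classes named after the markers Pvalb, Sst, Vip and Lamp5. The excitatory lineage arises in the dorsal forebrain under transcription factors of the Neurod, Tbr and Emx families, and the inhibitory lineage arises in the ventral forebrain under Dlx genes and Lhx6.

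The Camk2a libraries held 2005627 and 1833177 counts and the Gad2 libraries 630475 and 950497, so low values are less precise in the Gad2 libraries. Counts above 0 were found for 12684 and 12652 genes in the Camk2a libraries, against 11223 and 11805 in the Gad2 libraries. Replicates of the same driver differed by more than sampling noise, with a chi-square per degree of freedom of 2.92 between the Camk2a libraries and 2.70 between the Gad2 libraries. Values below are normalised CPM (counts relative to a library total scaled by TMM), replicate 1 before replicate 2, and differences are log2 Camk2a minus Gad2 with their standard error (SE). A gene is called higher or lower where edgeR's quasi-likelihood test gave a Benjamini-Hochberg adjusted p under 0.05 over all 9421 genes tested. Of these, 2001 were called, which is 21.2% of those tested: 1097 were higher in the Camk2a libraries (11.6%) and 904 were lower (9.60%). Counts of called list members below stand beside these shares. A gene can be in several lists, so the counts of different lists are not separate results. The filter used all 8 libraries, so the shares include genes with few counts in the 4 compared. Fitted alone, the 4 neuronal libraries gave 2871 calls among 8542 tested genes, so the shares depend on the libraries in the fit.

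The labels were checked first. The drivers' own genes went with the labels: Camk2a, the main postsynaptic kinase of excitatory synapses, had 2063 and 2149 normalised CPM in Camk2a libraries against 518 and 272 in Gad2 libraries, and Gad2, a glutamate decarboxylase, had 11.1 and 19 normalised CPM in Camk2a libraries against 798 and 938 in Gad2 libraries. Slc17a7, the vesicular glutamate transporter of most cortical excitatory neurons, had 529 and 409 normalised CPM in Camk2a libraries against 21.5 and 16.8 in Gad2 libraries (log2 difference 4.64, SE 0.41, adjusted p = 1.02e-07). For Gad1, the other glutamate decarboxylase, the values were 10.6 and 8.51 normalised CPM in Camk2a libraries against 1999 and 1801 in Gad2 libraries (log2 difference −7.61, SE 0.35, adjusted p = 1.11e-10). No value of the 4 genes overlapped between the groups, although Camk2a mRNA was plainly present in the Gad2 libraries while Gad1 was low in the Camk2a libraries. Excitatory markers, a list of 15 genes that includes Slc17a7 and Camk2a, summed to 1.12% and 1.07% of all counts in the Camk2a libraries, against 0.120% and 0.0874% in the Gad2 libraries. Inhibitory markers, a list of 16 genes that includes Gad1 and Gad2, summed to 0.00718% and 0.00649% of all counts in the Camk2a libraries, against 0.808% and 0.644% in the Gad2 libraries.

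The median tested gene differed by 0.03 on the log2 scale, and 5898 of the tested genes (62.6%) had groups that did not overlap, as did all 2001 called genes. The smallest difference that was called was 0.63. Among called genes, 887 were higher and 707 lower by over 1 on the log2 scale, 349 and 341 by over 2, and 65 and 112 by over 4. Called genes that were higher had a median difference of 1.46 and called genes that were lower a median of −1.59.

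**Figure D1:**
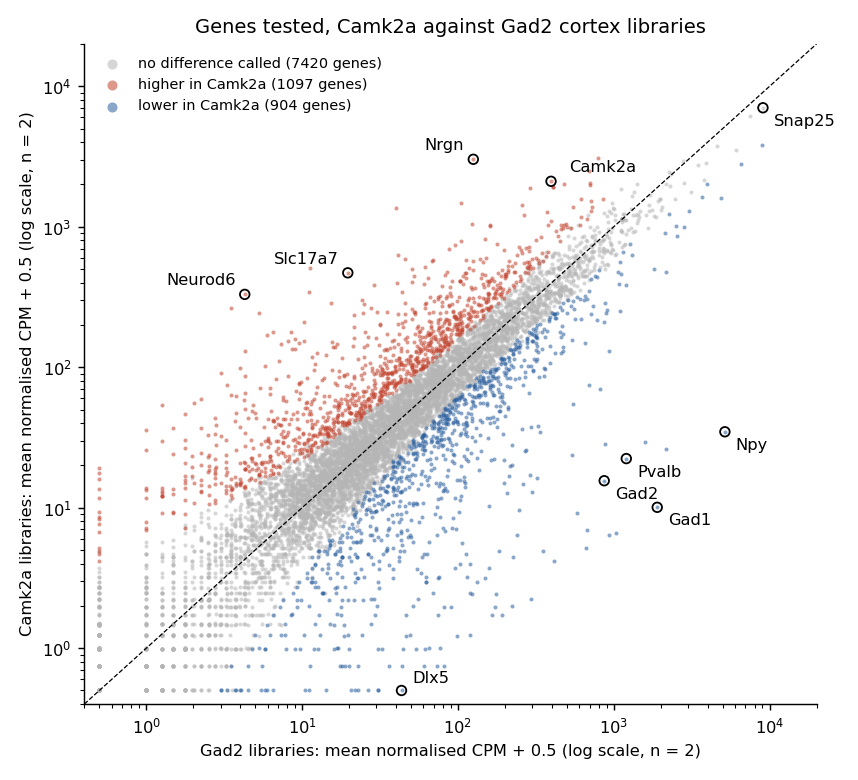
Mean normalised CPM of each tested gene in the 2 Camk2a libraries (vertical, log axis) and the 2 Gad2 libraries (horizontal, log axis), with called genes coloured by direction. The 1097 higher and 904 lower genes lie on either side of the diagonal, and the excitatory and inhibitory markers named on the plot lie far from it.

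Transcription factors of the excitatory lineage were among the largest differences. Of 34 listed factors of cortical projection neurons 33 were tested, 25 were higher and 1 lower (0, 1, 1 and 0 without Camk2a replicate 1, Camk2a replicate 2, Gad2 replicate 1 and Gad2 replicate 2), with a median log2 difference of 2.25 against 0.03 over all tested genes. The bHLH factor gene Neurod2 had 233 and 255 normalised CPM in Camk2a libraries against 4.61 and 4.93 in Gad2 libraries (log2 difference 5.63, SE 0.39, adjusted p = 6.20e-09). Zbtb18, a repressor needed in young projection neurons, had 227 and 258 normalised CPM in Camk2a libraries against 24.6 and 23.7 in Gad2 libraries (log2 difference 3.33, SE 0.27, adjusted p = 3.25e-08). Both were far higher in each Camk2a library than in either Gad2 library. Fezf2, which specifies deep-layer neurons that project below the cortex, had 18.4 and 19 normalised CPM in the Camk2a libraries and no count in the Gad2 libraries, so it was at least 10.4-fold higher against a floor of 3 counts over the group. Foxp1, a forkhead factor, was higher by 2.06 (adjusted p = 2.92e-06), while Mef2c and Bcl11a, at 0.63 and 0.64, did not pass the test.

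The exception in this list was Tcf4, a bHLH partner factor expressed in many neurons, with 197 and 376 normalised CPM in Camk2a libraries against 830.3 and 929 in Gad2 libraries (log2 difference −1.62, SE 0.35, adjusted p = 0.00227). The replicates of the Camk2a group differed for it more than for the factors above, and the call was lost without Camk2a replicate 1 (adjusted p = 0.114) and without Gad2 replicate 2 (adjusted p = 0.0537).

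Markers of cortical layers leaned the same way, but less uniformly. The upper-layer list had 6 of 11 tested members higher and none lower, with a median of 1.77, or 1.04 with the member that had no count in the Gad2 libraries set to its bound. Pou3f2, a POU factor of upper-layer neurons, had 46.8 and 49.6 normalised CPM in Camk2a libraries against 7.69 and 3.94 in Gad2 libraries (log2 difference 3.12, SE 0.41, adjusted p = 1.90e-05). In the layer 4 list 4 of 7 tested members were higher and 1 lower (median 2.93), with the lower count at 0, 0, 1 and 0 without Camk2a replicate 1, Camk2a replicate 2, Gad2 replicate 1 and Gad2 replicate 2. It was led by Rorb, a nuclear receptor that marks layer 4, with 171 and 185 normalised CPM in Camk2a libraries against 6.15 and 9.86 in Gad2 libraries (log2 difference 4.4, SE 0.36, adjusted p = 4.64e-08). The layer 5 list had 4 of 9 tested members higher and 2 lower, and the layer 6 list 5 of 9 higher and 2 lower. The higher counts in the same 4 fits were 3, 4, 3 and 2 for layer 5 and 5, 4, 4 and 3 for layer 6, and the lower count for layer 5 was 1, 0, 3 and 1. Pou3f1, a factor of layer 5 neurons, had 145 and 124 normalised CPM in Camk2a libraries against 12.3 and 3.94 in Gad2 libraries (log2 difference 4.18, SE 0.41, adjusted p = 4.12e-07). Hs3st4, a heparan sulfotransferase of layer 6, had 75.3 and 65.6 normalised CPM in Camk2a libraries against 4.61 and 6.90 in Gad2 libraries (log2 difference 3.53, SE 0.51, adjusted p = 5.06e-05). Tle4, a corepressor of layer 6, differed less, by 1.21 (adjusted p = 0.00107). The groups did not overlap for any of these genes. In the Gfap libraries Rorb (805 and 699 normalised CPM), Tle4 (225 and 195) and Pou3f2 (124 and 103) were higher than in the Camk2a libraries. Pou3f1 and Hs3st4 were lower in the Gfap libraries than in the Camk2a libraries.

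Some genes listed for a layer were instead called lower in the Camk2a libraries. They were Whrn of the layer 4 list (log2 difference −0.81) and Bcl6 and Tcerg1l of the layer 5 list (−1.26 and −1.07). In the layer 6 list they were Cplx3 (−2.48) and Moxd1 (−4.87). Moxd1, an oxidase homologue listed here for layer 6, had 1.45 and 2.00 normalised CPM in Camk2a libraries against 63 and 46.3 in Gad2 libraries (log2 difference −4.87, SE 0.47, adjusted p = 4.65e-07). Bcl11b, a zinc finger factor of deep-layer projection neurons that interneurons also use, had 147 and 132 normalised CPM in Camk2a libraries against 206 and 205 in Gad2 libraries and did not pass the test (log2 difference −0.56). Calb1, a calcium buffer of upper-layer neurons and of some interneurons, had 159 and 155 normalised CPM in Camk2a libraries against 168 and 243 in Gad2 libraries and did not pass it either (−0.40).

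**Figure D2:**
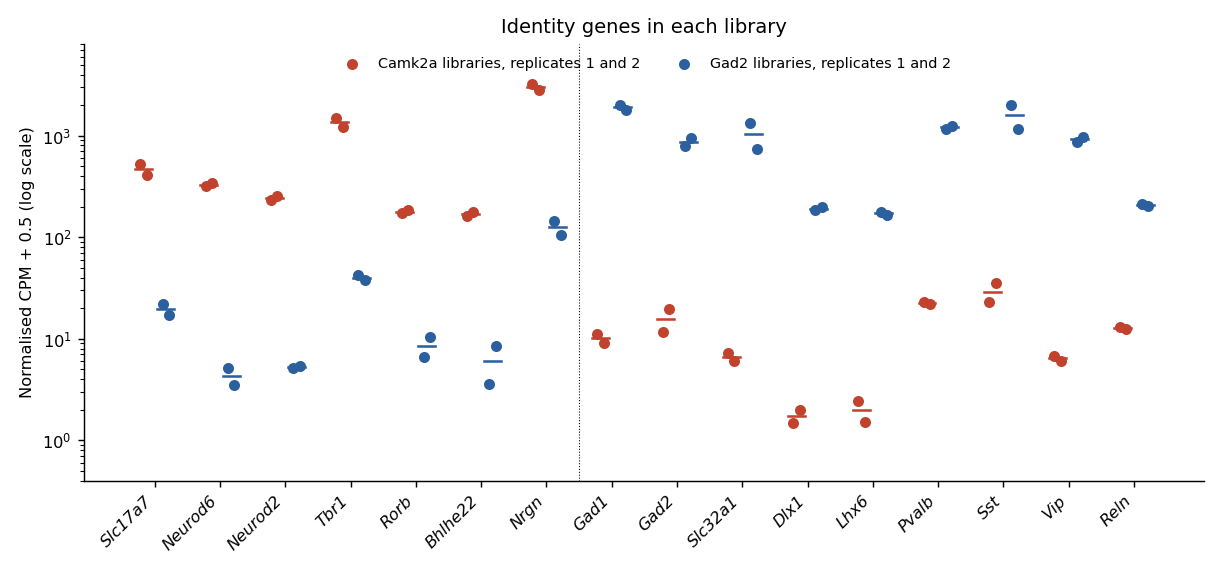
Normalised CPM (log axis) of markers and transcription factors of excitatory and inhibitory neurons in each of the 4 libraries, Camk2a libraries left of Gad2 libraries within each gene. Points of the same driver lie close together and those of different drivers lie apart for every gene drawn.

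Factors of the inhibitory lineage showed the mirror pattern. Of 26 listed interneuron transcription factors 21 were tested, 14 were lower in the Camk2a libraries and 3 higher, with a median of −3.87. Dlx1, a homeobox factor of the ventral forebrain, had 0.966 and 1.5 normalised CPM in Camk2a libraries against 185 and 196 in Gad2 libraries (log2 difference −7.14, SE 0.52, adjusted p = 9.49e-09). Lhx6, a LIM factor of interneurons from the medial ganglionic eminence, had 1.93 and 1.00 normalised CPM in Camk2a libraries against 178 and 165 in Gad2 libraries (log2 difference −6.75, SE 0.38, adjusted p = 2.14e-09). Adarb2, an RNA-editing family member that marks interneurons from the caudal eminence, had 1.93 and 0.501 normalised CPM in Camk2a libraries against 138 and 190.3 in Gad2 libraries (log2 difference −6.94, SE 0.44, adjusted p = 4.00e-09). Values in the Camk2a libraries stood at or near a few counts for all 3. Sp9, a zinc finger factor of the ventral forebrain, had 0 and 1.00 normalised CPM in Camk2a libraries against 55.4 and 74.9 in Gad2 libraries (log2 difference −6.76, SE 0.57, adjusted p = 1.02e-07). Nr2f2, a nuclear receptor of caudal-eminence interneurons, was lower by a smaller step, at −2.64.

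Listed interneuron factors that were higher in the Camk2a libraries were Meis2, Etv1 and Nr2f1 (3 of 21 tested, and 2, 3, 3 and 1 without Camk2a replicate 1, Camk2a replicate 2, Gad2 replicate 1 and Gad2 replicate 2). Meis2, a TALE homeobox factor, had 60.9 and 49.6 normalised CPM in Camk2a libraries against 15.4 and 4.93 in Gad2 libraries (log2 difference 2.58, SE 0.41, adjusted p = 1.16e-04). Nr2f1, a nuclear receptor that also patterns the cortical surface, had 124 and 107 normalised CPM in Camk2a libraries against 55.4 and 52.2 in Gad2 libraries (log2 difference 1.11), and its call was lost without Camk2a replicate 1 (adjusted p = 0.0537) and without Gad2 replicate 2 (adjusted p = 0.0552). The call of Etv1, an ETS factor also known from layer 5 (log2 difference 2.11), was lost without Gad2 replicate 2 (adjusted p = 0.0747). Zeb2, a zinc finger factor of migrating interneurons that pyramidal neurons also express, had 263 and 238 normalised CPM in Camk2a libraries against 317 and 329 in Gad2 libraries and did not pass the test.

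Marker lists of the interneuron classes were lower almost throughout. The lists share members: Calb2 and Tac2 are in both the Sst and the Vip list, and Npy is in the Sst and Lamp5 lists. The Sst median given next is the value of Tac2 itself. The Pvalb list had 11 of 12 tested members lower (median −5.10), the Sst list 8 of 9 (median −6.68) and the Vip list 9 of 9 (median −5.70, or −4.76 with genes without counts at their bound), with no member higher in any of the 3. Pvalb, a calcium buffer of fast-spiking cells, had 22.2 and 21.5 normalised CPM in Camk2a libraries against 1156 and 1249 in Gad2 libraries (log2 difference −5.77, SE 0.29, adjusted p = 1.73e-10). Sst, the peptide somatostatin, had 22.2 and 35 normalised CPM in Camk2a libraries against 1985 and 1174 in Gad2 libraries (log2 difference −5.78, SE 0.36, adjusted p = 1.42e-09), and the 2 Gad2 libraries differed from each other more than they did for Pvalb. Crhbp, which binds corticotropin-releasing hormone and marks Sst cells, had 4.35 and 3.00 normalised CPM in Camk2a libraries against 401 and 423 in Gad2 libraries (log2 difference −6.76, SE 0.38, adjusted p = 4.16e-10). Both peptide-related genes were thus low in the Camk2a libraries. Calb2, a calcium buffer of bipolar interneurons, had 0.483 and 1.00 normalised CPM in Camk2a libraries against 129 and 109 in Gad2 libraries (log2 difference −7.11, SE 0.48, adjusted p = 4.00e-09). Each of these genes was lower in both Camk2a libraries by a wide margin. The members that were not called were Syt2, a synaptotagmin of fast-spiking terminals, with 10.6 and 16.5 normalised CPM in Camk2a libraries against 27.7 and 19.7 in Gad2 libraries, and Satb1, a chromatin organiser, with 199 and 229 normalised CPM in Camk2a libraries against 275 and 367 in Gad2 libraries.

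The Lamp5 list was the least uniform of the 4, with 7 of 10 tested members lower, 2 higher and a median of −2.56. Reln, the secreted guidance protein reelin, had 12.6 and 12 normalised CPM in Camk2a libraries against 211 and 201 in Gad2 libraries (log2 difference −4.05, SE 0.26, adjusted p = 4.23e-09). Lamp5 itself, a lysosome-associated membrane protein, went the other way with 878 and 633 normalised CPM in Camk2a libraries against 195 and 161 in Gad2 libraries (log2 difference 2.09, SE 0.26, adjusted p = 6.17e-06). Id2, an inhibitor of bHLH factors, was also higher in the Camk2a libraries, with 522 and 464 normalised CPM in Camk2a libraries against 198 and 221 in Gad2 libraries (log2 difference 1.23), and its call was lost without Camk2a replicate 1 (adjusted p = 0.0620), without Gad2 replicate 1 (adjusted p = 0.0771) and without Gad2 replicate 2 (adjusted p = 0.0544). So in these bulk libraries the mRNA of Lamp5, which names an inhibitory class, was more abundant in the Camk2a libraries, without overlap. The values of Id2 did not overlap either. Id2 is also in the list of projection neuron factors above and is among the members counted as higher there.

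Promoters are printed for genes at both ends of the comparison, to show the DNA around the starts of genes whose mRNA differed most. The 6 shown were picked after the motifs below were searched and each holds a match, whereas 11 of the 24 genes with a promoter in the table, among the 15 with the largest difference in each direction, held none. They are RefSeq sequences on GRCm38.p6, the assembly that mm10 names, from 250 bases before to 50 bases after the start, read 5' to 3' on the gene's strand. Capitals mark 3 motifs searched on both strands: CAGATG, a form of the E-box that Neurod factors prefer; TAATTA, a core that homeodomain factors such as the Dlx family bind and which reads the same on both strands; and TATAAA, the TATA box. Neurod2, Tbr1 and Slc17a6 were higher in the Camk2a libraries, and Gad1, Tac1 and Dlx6os1 lower.
Neurod2 (chr11:98329596-98329895, minus strand): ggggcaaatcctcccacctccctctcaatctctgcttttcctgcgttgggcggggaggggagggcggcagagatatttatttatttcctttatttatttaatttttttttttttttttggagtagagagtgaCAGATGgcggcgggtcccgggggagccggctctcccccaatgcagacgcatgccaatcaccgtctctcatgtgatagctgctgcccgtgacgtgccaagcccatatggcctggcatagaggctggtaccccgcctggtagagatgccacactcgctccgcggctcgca
Tbr1 (chr2:61804203-61804502, plus strand): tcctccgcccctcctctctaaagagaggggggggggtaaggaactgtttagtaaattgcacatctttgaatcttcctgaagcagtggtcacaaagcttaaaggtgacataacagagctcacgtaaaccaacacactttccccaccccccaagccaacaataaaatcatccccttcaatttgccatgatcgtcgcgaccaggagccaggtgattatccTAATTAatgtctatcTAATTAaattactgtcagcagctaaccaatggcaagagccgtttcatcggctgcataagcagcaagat
Slc17a6 (chr7:51624387-51624686, plus strand): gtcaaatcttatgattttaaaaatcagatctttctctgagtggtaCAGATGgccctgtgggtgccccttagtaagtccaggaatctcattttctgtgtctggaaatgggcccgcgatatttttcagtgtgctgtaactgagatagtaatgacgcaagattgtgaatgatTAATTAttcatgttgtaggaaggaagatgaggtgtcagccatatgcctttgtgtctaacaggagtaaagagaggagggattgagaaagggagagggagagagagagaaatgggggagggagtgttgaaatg
Gad1 (chr2:70561879-70562178, plus strand): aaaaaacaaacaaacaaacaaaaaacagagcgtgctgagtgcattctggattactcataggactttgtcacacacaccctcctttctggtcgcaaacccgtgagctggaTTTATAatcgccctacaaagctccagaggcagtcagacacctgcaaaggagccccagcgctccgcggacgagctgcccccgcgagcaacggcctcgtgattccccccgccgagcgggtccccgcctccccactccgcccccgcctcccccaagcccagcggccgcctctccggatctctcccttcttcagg
Tac1 (chr6:7554811-7555110, plus strand): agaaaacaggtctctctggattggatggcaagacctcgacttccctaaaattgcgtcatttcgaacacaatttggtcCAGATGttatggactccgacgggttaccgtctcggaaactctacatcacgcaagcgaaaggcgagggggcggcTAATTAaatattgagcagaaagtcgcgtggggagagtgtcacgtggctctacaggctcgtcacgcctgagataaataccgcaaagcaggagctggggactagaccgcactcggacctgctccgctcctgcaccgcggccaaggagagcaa
Dlx6os1 (chr6:6869484-6869783, minus strand): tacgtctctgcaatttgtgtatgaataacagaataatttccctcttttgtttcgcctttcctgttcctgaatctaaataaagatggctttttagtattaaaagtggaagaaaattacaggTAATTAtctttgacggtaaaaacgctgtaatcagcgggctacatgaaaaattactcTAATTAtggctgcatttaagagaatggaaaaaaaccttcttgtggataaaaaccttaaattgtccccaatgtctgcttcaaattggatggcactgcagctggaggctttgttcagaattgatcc

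In these windows Neurod2 held 1 CAGATG, Tbr1 held 2 TAATTA, and this start of Slc17a6, of the 2 in RefSeq, held 1 CAGATG and 1 TAATTA. Gad1 held 1 TATAAA, Tac1 held 1 CAGATG and 1 TAATTA, and this start of Dlx6os1, again of 2, held 2 TAATTA. Among the 7507 tested genes with a promoter in the table, CAGATG occurred in 16.49% of higher genes, 15.13% of lower genes and 13.37% of all tested genes. TAATTA occurred in 3.35% of higher, 3.99% of lower and 3.25% of all tested genes, and TATAAA in 9.68%, 11.69% and 8.66%. The E-box form was therefore about as common in genes lower in the Camk2a libraries as in those higher there. A match is a description of the letters and not of a bound site.

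Genes of GABA handling were lower nearly as a group. Of 8 listed genes 7 were tested and 6 were lower in the Camk2a libraries, with a median of −5.84. That median is the value of Gad2 itself, and the list also holds Gad1, both used above to check the labels. Abat, the transaminase that breaks GABA down, had 73.9 and 74.1 normalised CPM in Camk2a libraries against 789 and 603 in Gad2 libraries (log2 difference −3.23, SE 0.28, adjusted p = 6.75e-08). Aldh5a1, which completes that breakdown in mitochondria, had 109 and 83.1 normalised CPM in Camk2a libraries against 341 and 379 in Gad2 libraries (log2 difference −1.90, SE 0.26, adjusted p = 1.78e-05). The synthetic enzymes Gad1 and Gad2 thus differed more than the breakdown enzymes did, with no overlap for any. Slc6a11, a GABA transporter of astrocytes, was the tested member without a call, at 1.93 and 1.5 normalised CPM in Camk2a libraries against 1.54 and 1.97 in Gad2 libraries.

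Glutamate handling was mixed, with 3 of 12 tested members higher, Slc17a7 among them, and 2 lower (median −0.47). The lower count was 2, 2, 1 and 2 without Camk2a replicate 1, Camk2a replicate 2, Gad2 replicate 1 and Gad2 replicate 2. Slc17a6, the vesicular transporter better known from thalamus, had 50.7 and 41 normalised CPM in Camk2a libraries against 1.54 and 0.986 in Gad2 libraries (log2 difference 5.12, SE 0.59, adjusted p = 4.16e-06). Slc38a1, a carrier that brings in glutamine, was lower, with 115 and 112 normalised CPM in Camk2a libraries against 335 and 308 in Gad2 libraries (log2 difference −1.5, SE 0.22, adjusted p = 4.46e-05). Slc1a2, the glutamate carrier known mainly from astrocytes, was higher, with 495 and 484 normalised CPM in Camk2a libraries against 99.9 and 149 in Gad2 libraries (log2 difference 1.96, SE 0.32, adjusted p = 1.71e-04). The astrocyte list that holds Slc1a2 had 1 of 16 tested members higher and 1 lower (median −0.10, or −0.26 with genes without counts at their bound). Its summed share was 0.0768% and 0.0816% of all counts in the Camk2a libraries, against 0.0531% and 0.0622% in the Gad2 libraries. Without Slc1a2 itself the other 15 genes summed to 0.0257% and 0.0289% of all counts in the Camk2a libraries, against 0.0428% and 0.0463% in the Gad2 libraries, so the order of the sum turned on that gene. Aldh1l1, an astrocyte enzyme, had no count in either Gad2 library. The part of astrocyte RNA in other differences was not tested.

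Receptors for the same transmitters split within families. Of 14 tested AMPA receptor subunits and partner genes, 5 were higher and 4 lower. Gria1, an AMPA subunit that allows calcium entry where the receptor lacks Gria2, had 131 and 129.7 normalised CPM in Camk2a libraries against 412 and 536 in Gad2 libraries (log2 difference −1.87, SE 0.25, adjusted p = 1.38e-05). Gria2, the subunit that makes the receptor impermeable to calcium, had 871 and 810.4 normalised CPM in Camk2a libraries against 314 and 369.7 in Gad2 libraries (log2 difference 1.30). The 2 subunits were thus ordered in opposite ways by driver. Olfm1, a secreted protein that binds AMPA receptors, had 3159 and 3049.5 normalised CPM in Camk2a libraries against 806 and 776 in Gad2 libraries (log2 difference 1.97, SE 0.29, adjusted p = 4.73e-05). Of the channel's transmembrane partners, Cacng3 was higher by 1.46 and Cacng5 lower, at −2.91, while Cacng2 at −0.39 did not pass the test.

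Kainate receptor genes had 1 of 7 tested members higher and 3 lower (lower counts 3, 2, 3 and 1 without Camk2a replicate 1, Camk2a replicate 2, Gad2 replicate 1 and Gad2 replicate 2). The higher count was 0, 0, 2 and 0 in the same 4 fits. Neto2, an auxiliary subunit of kainate receptors, had 58 and 72.1 normalised CPM in Camk2a libraries against 266 and 308 in Gad2 libraries (log2 difference −2.14, SE 0.26, adjusted p = 5.43e-06). Metabotropic glutamate receptors had 5 of 7 tested members higher and 1 lower, with a median of 1.16, and in the same 4 fits the higher count was 3, 2, 2 and 2 and the lower count 0, 0, 1 and 0. Grm2, a presynaptic autoreceptor, had no count in the Gad2 libraries and was at least 8.57-fold higher in the Camk2a libraries, at 17.4 and 13.5 normalised CPM. Grm5, a postsynaptic receptor coupled to calcium release, did not pass the test, at 496 and 459 normalised CPM in Camk2a libraries against 475 and 489 in Gad2 libraries (log2 difference −0.02, adjusted p = 0.989).

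Of 10 tested GABA-A receptor subunits 1 was higher and 1 lower, with a median of −0.10, so the share called was near the 21.2% of all tested genes. Both counts were 0 in each of the 4 fits that left out 1 library. The higher member, Gabra5, a subunit of extrasynaptic receptors, had 319 and 316 normalised CPM in Camk2a libraries against 161 and 148 in Gad2 libraries (log2 difference 1.04). Its values did not overlap, but the call was lost without Camk2a replicate 1 (adjusted p = 0.0599), without Camk2a replicate 2 (adjusted p = 0.0562), without Gad2 replicate 1 (adjusted p = 0.0671) and without Gad2 replicate 2 (adjusted p = 0.121). Of the genes for GABA-B receptors and inhibitory scaffolds 1 of 11 tested was higher and 2 were lower. The higher count was 0 in the same 4 fits. Those lower were the GABA-B auxiliary subunits Kctd8 and Kctd12, at −2.21 and −1.76. Slc12a5, the chloride exporter that makes GABA inhibitory in mature neurons, had 1245 and 1087 normalised CPM in Camk2a libraries against 1501 and 1387 in Gad2 libraries and did not pass the test.

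Neuropeptide genes were among the largest differences on both sides. Of 16 tested, 12 were lower in the Camk2a libraries and 3 higher, with a median of −5.26. Among the lower genes Tac1, Tac2, Vip, Sst and Crh are also in the interneuron class lists above. Npy, neuropeptide Y, had 31.4 and 37 normalised CPM in Camk2a libraries against 6012 and 4317 in Gad2 libraries (log2 difference −7.23, SE 0.54, adjusted p = 1.14e-08). Pnoc, the nociceptin precursor, had 0.483 and 3.00 normalised CPM in Camk2a libraries against 291 and 293 in Gad2 libraries (log2 difference −7.31, SE 0.38, adjusted p = 3.82e-10). Tac2, which encodes neurokinin B, had 3.86 and 9.01 normalised CPM in Camk2a libraries against 715 and 621 in Gad2 libraries (log2 difference −6.68, SE 0.34, adjusted p = 1.73e-10). These 3 genes were abundant in both Gad2 libraries. Crh, corticotropin-releasing hormone, had 6.28 and 12 normalised CPM in Camk2a libraries against 228 and 262 in Gad2 libraries (log2 difference −4.74, SE 0.31, adjusted p = 5.74e-09). Each was many times lower in the Camk2a libraries, though each was still counted in both of them. The 3 peptide genes that were higher were Adcyap1, Grp and Cck. Adcyap1, the precursor of PACAP, had 65.2 and 41 normalised CPM in Camk2a libraries against 1.54 and 0 in Gad2 libraries (log2 difference 6.20, SE 0.79, adjusted p = 1.18e-05). Grp, gastrin-releasing peptide, had 43.5 and 50.6 normalised CPM in Camk2a libraries against 4.61 and 1.97 in Gad2 libraries (log2 difference 3.91, SE 0.55, adjusted p = 3.74e-05). Nts, neurotensin, had 12.6 and 8.51 normalised CPM in Camk2a libraries against 12.3 and 7.89 in Gad2 libraries and did not pass the test.

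Some receptors were ordered the other way from their peptide. Vipr1, a receptor for VIP and PACAP, had 66.7 and 50.1 normalised CPM in Camk2a libraries against 1.54 and 5.91 in Gad2 libraries (log2 difference 3.77, SE 0.53, adjusted p = 2.95e-05), so it was higher in the Camk2a libraries where Vip itself was lower. Npy1r, a postsynaptic receptor for neuropeptide Y, had 94.2 and 104 normalised CPM in Camk2a libraries against 19.99 and 27.6 in Gad2 libraries (log2 difference 2.01, SE 0.28, adjusted p = 3.94e-05). Npy2r, the receptor that acts on terminals, had 5.80 and 6.51 normalised CPM in Camk2a libraries against 46.1 and 39.4 in Gad2 libraries (log2 difference −2.76, SE 0.38, adjusted p = 3.38e-05). Adcyap1r1, the PACAP receptor, was lower, at −1.40 (adjusted p = 3.29e-04), where its peptide was higher. In all, 4 of 10 tested peptide receptors were higher (and 3, 4, 3 and 2 without Camk2a replicate 1, Camk2a replicate 2, Gad2 replicate 1 and Gad2 replicate 2) and 2 lower. Among enzymes and granule proteins of the peptide route, 1 of 11 was higher and 2 lower (lower counts 1, 0, 1 and 1 in the same 4 fits). The share called over all tested genes was 21.2%. Pcsk2, a prohormone convertase, had 813 and 773 normalised CPM in Camk2a libraries against 118 and 90.7 in Gad2 libraries (log2 difference 2.94, SE 0.29, adjusted p = 4.95e-07). Scg2, a granin, had 1095 and 934 normalised CPM in Camk2a libraries against 2877 and 2117 in Gad2 libraries (log2 difference −1.30), with its call lost without Camk2a replicate 2 (adjusted p = 0.0721).

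Receptors for other modulators held calls on both sides, with 1 of 10 tested monoamine receptors higher and 2 lower. Over all tested genes 21.2% were called in either direction. The monoamine receptor counts were 1, 1, 0 and 1 without Camk2a replicate 1, Camk2a replicate 2, Gad2 replicate 1 and Gad2 replicate 2 for the higher and 2, 2, 1 and 2 in the same 4 fits for the lower. Of 7 tested receptors for acetylcholine, cannabinoids and adenosine 2 were higher and 2 lower. Chrm1, the main muscarinic receptor of the cortex, had 241 and 246 normalised CPM in Camk2a libraries against 76.9 and 53.2 in Gad2 libraries (log2 difference 1.93, SE 0.27, adjusted p = 3.63e-05). Adora1, an inhibitory adenosine receptor, had 167 and 109.6 normalised CPM in Camk2a libraries against 23.1 and 25.6 in Gad2 libraries (log2 difference 2.49, SE 0.29, adjusted p = 3.60e-06). Both were higher in the Camk2a libraries without overlap. Cnr1, the cannabinoid receptor of Cck-type terminals, was lower, with 280.1 and 226 normalised CPM in Camk2a libraries against 1087 and 1118 in Gad2 libraries (log2 difference −2.12, SE 0.25, adjusted p = 3.65e-06). Drd1, a dopamine receptor listed here as a striatal marker, was lower, at 29.9 and 25 normalised CPM in Camk2a libraries against 84.6 and 98.6 in Gad2 libraries (log2 difference −1.74), and Adora2a, another striatal marker, was lower at −4.4. The striatal list as a whole had 3 of 7 tested members higher (1, 1, 2 and 1 in the same 4 fits) and 2 lower, with a median of 0.01.

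**Figure D3:**
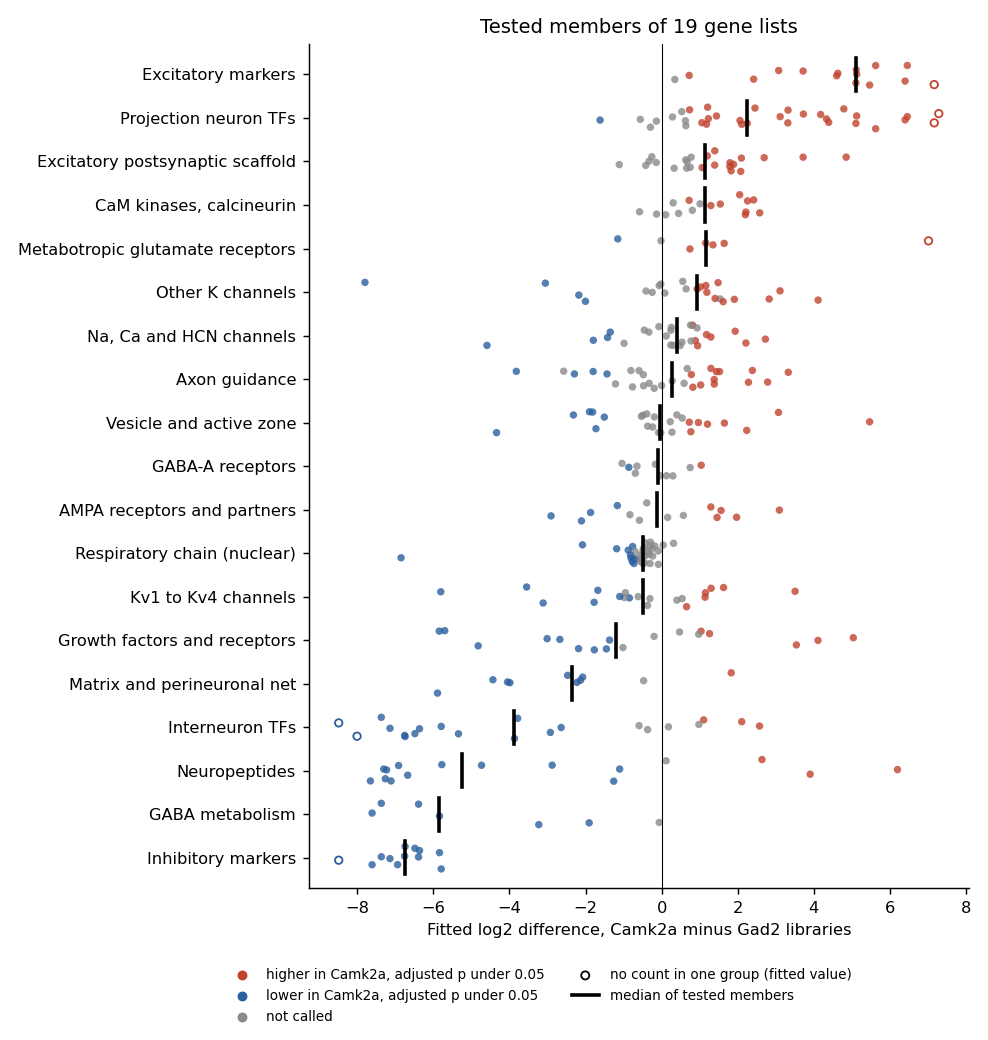
Fitted log2 differences (horizontal, Camk2a minus Gad2 libraries) of the tested members of 19 gene lists, coloured by call, with open points for genes without a count in a group and a bar at each list's median. Medians run from −6.75 for inhibitory markers to 5.11 for excitatory markers (−6.62 and 4.64 with genes without counts at their bound), and most of the other lists hold members on both sides of 0.

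Potassium channels differed by subunit. Of 20 tested Kv1 to Kv4 subunits and their partners 6 were higher (2, 4, 3 and 3 without Camk2a replicate 1, Camk2a replicate 2, Gad2 replicate 1 and Gad2 replicate 2) and 7 lower. Kcnc1, the Kv3 channel of fast-spiking cells, was lower at −3.55, and its relative Kcnc2 had 44.4 and 30.5 normalised CPM in Camk2a libraries against 315 and 336 in Gad2 libraries (log2 difference −3.11, SE 0.26, adjusted p = 4.94e-08). Kcnip1, a calcium sensor bound to Kv4 channels, had 3.38 and 4.51 normalised CPM in Camk2a libraries against 218 and 235 in Gad2 libraries (log2 difference −5.81, SE 0.31, adjusted p = 3.82e-10). Kcnip3, a sensor of the same family, went the other way with 294 and 270.3 normalised CPM in Camk2a libraries against 24.6 and 24.6 in Gad2 libraries (log2 difference 3.51, SE 0.29, adjusted p = 4.32e-08). The 2 sensors were ordered oppositely, without overlap. Of 23 other potassium channel genes tested 11 were higher (8, 8, 8 and 6 in the same 4 fits) and 4 lower. Kcnv1, a silent subunit that modifies other potassium channels, had 157 and 141.2 normalised CPM in Camk2a libraries against 12.3 and 5.91 in Gad2 libraries (log2 difference 4.12, SE 0.35, adjusted p = 9.72e-08). Kcnh3, an ether-a-go-go type channel, had 518 and 370.4 normalised CPM in Camk2a libraries against 58.4 and 45.3 in Gad2 libraries (log2 difference 3.12, SE 0.29, adjusted p = 1.80e-07). Kcnmb2, a beta subunit that inactivates calcium-activated BK channels, had the most negative log2 difference of the named genes with counts in both groups, with 0 and 0.501 normalised CPM in Camk2a libraries against 80.0 and 82.8 in Gad2 libraries (log2 difference −7.80, SE 0.57, adjusted p = 3.22e-08). The pore subunit of BK channels, Kcnma1, was higher instead, at 1.19 (adjusted p = 7.00e-04), as was the inward rectifier Kcnj2, at 2.83, while the leak channel Kcnk3 was lower, at −2.0.

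Among 26 tested sodium, calcium and HCN channel genes 8 were higher (3, 5, 4 and 6 without Camk2a replicate 1, Camk2a replicate 2, Gad2 replicate 1 and Gad2 replicate 2) and 4 lower. Cacna2d1, an auxiliary subunit that brings calcium channels to the surface, had 456 and 401 normalised CPM in Camk2a libraries against 55.4 and 72 in Gad2 libraries (log2 difference 2.73, SE 0.26, adjusted p = 2.35e-07). Cacna2d2, its close relative, had 9.66 and 15 normalised CPM in Camk2a libraries against 275 and 322 in Gad2 libraries (log2 difference −4.59, SE 0.28, adjusted p = 2.31e-09). The pair was ordered in opposite ways with no overlap. Cacnb3, a cytoplasmic beta subunit, was higher, at 299 and 325 normalised CPM in Camk2a libraries against 105 and 62.1 in Gad2 libraries (log2 difference 1.94), while Cacnb4 at −0.07 did not pass the test. Scn8a, a sodium channel subunit found in most neurons, had 533 and 546 normalised CPM in Camk2a libraries against 479.7 and 432 in Gad2 libraries and did not pass the test (log2 difference 0.24).

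Genes of the release machinery also paired off. Of 26 tested vesicle and active-zone genes 8 were higher (4, 5, 4 and 4 without Camk2a replicate 1, Camk2a replicate 2, Gad2 replicate 1 and Gad2 replicate 2) and 6 lower. Sv2b, a synaptic vesicle glycoprotein, had 587 and 425 normalised CPM in Camk2a libraries against 7.69 and 13.8 in Gad2 libraries (log2 difference 5.47, SE 0.46, adjusted p = 5.47e-08). Sv2a, its paralogue, had 24.1 and 38 normalised CPM in Camk2a libraries against 161 and 149.8 in Gad2 libraries (log2 difference −2.32, SE 0.28, adjusted p = 5.28e-06). The vesicle glycoproteins were thus ordered oppositely. Unc13b, a vesicle priming factor, had 87.9 and 87.6 normalised CPM in Camk2a libraries against 15.4 and 20.7 in Gad2 libraries (log2 difference 2.24, SE 0.29, adjusted p = 1.03e-05). Unc13c, another Munc13 family member, had 17.4 and 18.52 normalised CPM in Camk2a libraries against 66.1 and 68 in Gad2 libraries (log2 difference −1.90, SE 0.28, adjusted p = 5.81e-05). The Munc13 genes were ordered oppositely too, and no value overlapped in either pair. Stx1a, a SNARE of the plasma membrane, had 626 and 536 normalised CPM in Camk2a libraries against 72.3 and 66.1 in Gad2 libraries (log2 difference 3.07, SE 0.28, adjusted p = 1.89e-07). Rab3b, a vesicle GTPase, had 13.5 and 18 normalised CPM in Camk2a libraries against 259.9 and 379 in Gad2 libraries (log2 difference −4.34, SE 0.37, adjusted p = 7.11e-08). Vamp1, the vesicle SNARE of fast-spiking terminals, was lower, at −1.81 (adjusted p = 1.13e-05), while Vamp2 and Snap25, the common partners, had differences of −0.19 and −0.37 and did not pass the test.

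Of 14 tested synaptotagmins and complexins 5 were higher (3, 3, 4 and 3 without Camk2a replicate 1, Camk2a replicate 2, Gad2 replicate 1 and Gad2 replicate 2) and 3 lower (2, 1, 3 and 2 in the same 4 fits). Doc2a, a calcium sensor for asynchronous and spontaneous release, had 71.5 and 58.1 normalised CPM in Camk2a libraries against 7.69 and 10.8 in Gad2 libraries (log2 difference 2.75, SE 0.38, adjusted p = 2.81e-05). Syt5, a synaptotagmin, had 173 and 206 normalised CPM in Camk2a libraries against 76.9 and 39.4 in Gad2 libraries (log2 difference 1.76, SE 0.31, adjusted p = 2.86e-04). Cplx3, a complexin that marks some Lamp5 interneurons and subplate neurons, had 24.1 and 25.5 normalised CPM in Camk2a libraries against 141.5 and 137 in Gad2 libraries (log2 difference −2.48, SE 0.25, adjusted p = 7.05e-07). Cplx1 had 344 and 198 normalised CPM in Camk2a libraries against 753 and 723 in Gad2 libraries (log2 difference −1.44), with its call lost without Camk2a replicate 2 (adjusted p = 0.114). Syt1, the calcium sensor of fast release, had 653 and 577 normalised CPM in Camk2a libraries against 564 and 727 in Gad2 libraries and did not pass the test.

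**Figure D4:**
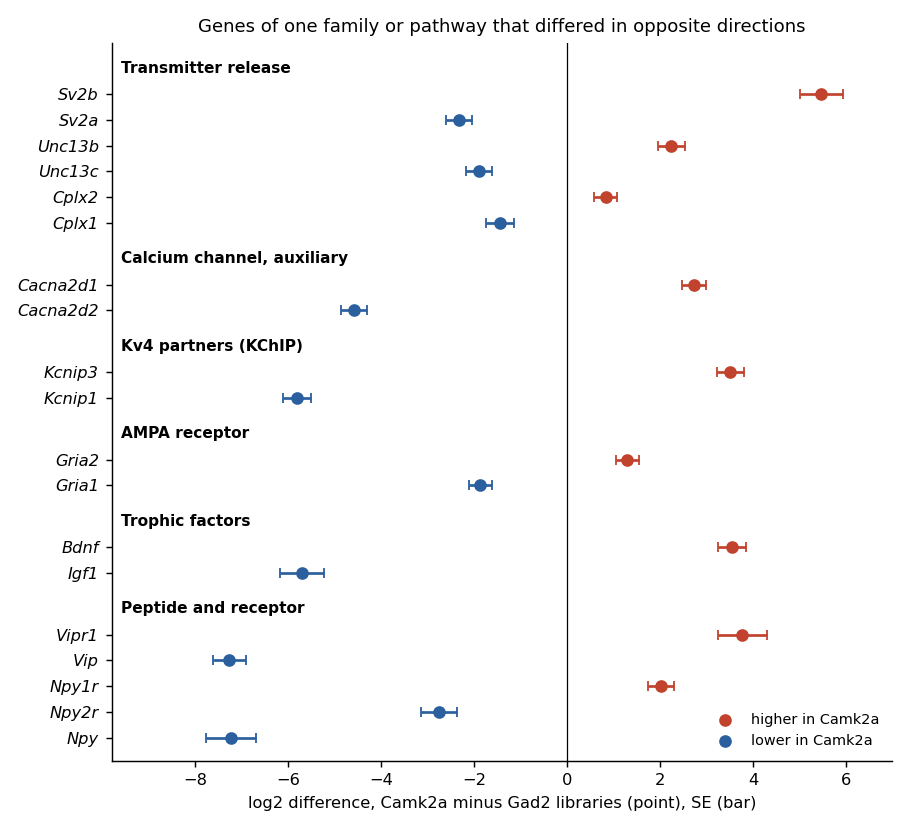
Fitted log2 differences (horizontal, Camk2a minus Gad2 libraries, bars of 1 SE) of genes that share a family or pathway and were called in opposite directions, chosen after their values were seen. In the release machinery Sv2b and Unc13b lie right of 0 and Sv2a and Unc13c left of it.

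Ion pumps and exchangers held calls on both sides, with 5 of 13 tested genes higher (4, 4, 3 and 3 without Camk2a replicate 1, Camk2a replicate 2, Gad2 replicate 1 and Gad2 replicate 2) and 2 lower (1, 0, 0 and 2 in the same 4 fits). Atp1b1, the main beta subunit of the sodium pump, had 4032 and 3591 normalised CPM in Camk2a libraries against 10353 and 7431 in Gad2 libraries (log2 difference −1.22). Its values did not overlap, but the call was lost without Camk2a replicate 1 (adjusted p = 0.0690), without Camk2a replicate 2 (adjusted p = 0.116) and without Gad2 replicate 1 (adjusted p = 0.0930). Atp2b4, a plasma membrane calcium pump, had 559 and 588 normalised CPM in Camk2a libraries against 83 and 52.2 in Gad2 libraries (log2 difference 3.11, SE 0.28, adjusted p = 1.21e-07). Slc8a2, a sodium-calcium exchanger, had 669 and 728 normalised CPM in Camk2a libraries against 90.7 and 82.8 in Gad2 libraries (log2 difference 3.01, SE 0.33, adjusted p = 1.42e-06). Both calcium exporters were higher in each Camk2a library.

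The postsynaptic side was higher in the Camk2a libraries where it was called. Of 24 tested scaffold and spine genes of excitatory synapses 13 were higher and 0 lower, with a median of 1.14, and the higher count was 10, 11, 10 and 8 without Camk2a replicate 1, Camk2a replicate 2, Gad2 replicate 1 and Gad2 replicate 2. Itpka, a kinase of spines that bundles actin, had 174 and 180.2 normalised CPM in Camk2a libraries against 6.15 and 5.91 in Gad2 libraries (log2 difference 4.86, SE 0.34, adjusted p = 9.90e-09). Baiap2, an actin regulator of spines, had 597 and 582 normalised CPM in Camk2a libraries against 52.3 and 38.4 in Gad2 libraries (log2 difference 3.72, SE 0.38, adjusted p = 5.92e-07). Kalrn, an exchange factor that enlarges spines, had 1819 and 1949 normalised CPM in Camk2a libraries against 261 and 317 in Gad2 libraries (log2 difference 2.70, SE 0.33, adjusted p = 5.85e-06). Homer1, a scaffold of metabotropic receptors, was higher by 1.83 and Iqsec2, an exchange factor for Arf GTPases, by 1.80. Dlg4, which encodes the scaffold PSD-95, had 1714 and 1594 normalised CPM in Camk2a libraries against 1669.8 and 966 in Gad2 libraries and did not pass the test, and neither did Dlgap1, at −0.26.

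Calcium and calmodulin signalling leaned the same way. Of 16 tested calmodulin kinase and calcineurin genes 9 were higher, Camk2a itself among them, and 0 lower (median 1.15). Camk4, a nuclear calmodulin kinase, had 219 and 258 normalised CPM in Camk2a libraries against 49.2 and 32.5 in Gad2 libraries (log2 difference 2.58, SE 0.26, adjusted p = 5.47e-07). Camkk2, which phosphorylates Camk4, had 462 and 478 normalised CPM in Camk2a libraries against 109 and 116 in Gad2 libraries (log2 difference 2.05, SE 0.26, adjusted p = 7.65e-06). Camk2n1, an inhibitor of the kinase CaMKII, was higher too, at 2.20, whereas its relative Camk2n2, at −0.58, and the kinase subunit Camk2g, at 0.11, did not pass the test. Among 19 tested calcium-binding proteins 9 were higher (6, 5, 6 and 6 without Camk2a replicate 1, Camk2a replicate 2, Gad2 replicate 1 and Gad2 replicate 2) and 2 lower. Nrgn, neurogranin, which holds calmodulin in dendrites, had 3229 and 2814 normalised CPM in Camk2a libraries against 145 and 105 in Gad2 libraries (log2 difference 4.60, SE 0.35, adjusted p = 1.39e-08). Hpca, the calcium sensor hippocalcin, had 375 and 382 normalised CPM in Camk2a libraries against 78.4 and 78.9 in Gad2 libraries (log2 difference 2.27, SE 0.33, adjusted p = 4.69e-05). The calmodulin genes Calm2 and Calm3 had differences of 0.02 and −0.25, and neither passed the test. The 2 lower calcium-binding genes were Pvalb and Calb2, both in the interneuron class lists above.

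In Ras and MAP kinase signalling 8 of 20 tested genes were higher (5, 5, 5 and 4 without Camk2a replicate 1, Camk2a replicate 2, Gad2 replicate 1 and Gad2 replicate 2) and 3 lower (1, 2, 2 and 1 in the same 4 fits). Rasgrp1, a Ras exchange factor that responds to diacylglycerol and calcium, had 1015 and 999.7 normalised CPM in Camk2a libraries against 171 and 149.8 in Gad2 libraries (log2 difference 2.66, SE 0.28, adjusted p = 1.02e-06). Rap1gap2, which switches off Rap1, had 597 and 560.1 normalised CPM in Camk2a libraries against 112 and 113 in Gad2 libraries (log2 difference 2.36, SE 0.24, adjusted p = 6.28e-07). Araf, a RAF kinase and a gene named in the title of the series, had 114 and 113 normalised CPM in Camk2a libraries against 197 and 200.1 in Gad2 libraries (log2 difference −0.81, SE 0.21, adjusted p = 0.00982). Its values did not overlap between the drivers, but the call was lost without Camk2a replicate 1 (adjusted p = 0.144), without Camk2a replicate 2 (adjusted p = 0.145), without Gad2 replicate 1 (adjusted p = 0.0621) and without Gad2 replicate 2 (adjusted p = 0.0965). The cAMP, PKC and RGS list had 11 of 34 tested members higher (8, 9, 7 and 8 in the same 4 fits) and 4 lower (3, 3, 3 and 2 in the same 4 fits). Rgs4, which shortens G-protein signals, had 722 and 751 normalised CPM in Camk2a libraries against 76.9 and 113 in Gad2 libraries (log2 difference 2.93, SE 0.28, adjusted p = 2.41e-07). Rgs14, an RGS protein that also binds Ras, had 115 and 122 normalised CPM in Camk2a libraries against 12.3 and 9.86 in Gad2 libraries (log2 difference 3.43, SE 0.32, adjusted p = 2.41e-07). Pde1a, a phosphodiesterase activated by calmodulin, was higher by 2.60.

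Activity-regulated genes did not share a direction, with 9 of 21 tested members higher (6, 7, 7 and 5 without Camk2a replicate 1, Camk2a replicate 2, Gad2 replicate 1 and Gad2 replicate 2) and 3 lower. Nptx2, a pentraxin that clusters AMPA receptors after activity, had 91.3 and 98.6 normalised CPM in Camk2a libraries against 13.8 and 8.87 in Gad2 libraries (log2 difference 3.11, SE 0.38, adjusted p = 8.22e-06). Sik1, a kinase induced by cAMP, had 6.28 and 5.51 normalised CPM in Camk2a libraries against 32.3 and 36.5 in Gad2 libraries (log2 difference −2.53, SE 0.43, adjusted p = 2.41e-04). Junb, Nr4a1 and Per1, which are induced by activity in many cells, had differences of −0.37, −0.50 and −0.31 and did not pass the test.

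Of 35 tested synaptic adhesion genes 10 were higher (8, 7, 7 and 6 without Camk2a replicate 1, Camk2a replicate 2, Gad2 replicate 1 and Gad2 replicate 2) and 4 lower. Nptx1, a secreted pentraxin, had 1615 and 1339 normalised CPM in Camk2a libraries against 121 and 85.8 in Gad2 libraries (log2 difference 3.85, SE 0.35, adjusted p = 1.51e-07). Its membrane receptor Nptxr had 2186 and 1666 normalised CPM in Camk2a libraries against 366 and 443 in Gad2 libraries (log2 difference 2.25, SE 0.30, adjusted p = 1.54e-05), although Nptxr overlaps the gene Npcd, which was also higher, and the 2 cannot be told apart in these counts. Slitrk1, a postsynaptic adhesion protein, had 509.5 and 506 normalised CPM in Camk2a libraries against 123 and 110.4 in Gad2 libraries (log2 difference 2.12, SE 0.25, adjusted p = 3.19e-06). All 3 were higher in both Camk2a libraries. Elfn1, which recruits metabotropic receptors onto terminals that contact Sst cells, had 2.41 and 4.51 normalised CPM in Camk2a libraries against 139.9 and 66.1 in Gad2 libraries (log2 difference −4.81, SE 0.44, adjusted p = 1.65e-07). Cntnap4, an adhesion protein of GABA synapses, had 15 and 15 normalised CPM in Camk2a libraries against 115 and 104 in Gad2 libraries (log2 difference −2.85, SE 0.28, adjusted p = 4.86e-07). Elfn1 and Cntnap4 were lower in both Camk2a libraries. Among 18 tested cadherins and protocadherins 4 were higher (0, 1, 0 and 2 in the same 4 fits) and 6 lower (3, 3, 4 and 3 in the same 4 fits), with Pcdh18, a protocadherin, lowest at −5.02 (adjusted p = 1.63e-07).

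Matrix genes were mostly lower in the Camk2a libraries, with 8 of 10 tested members lower, 1 higher and a median of −2.35. Hapln1, a link protein of perineuronal nets, had 3.38 and 0.501 normalised CPM in Camk2a libraries against 111 and 135 in Gad2 libraries (log2 difference −5.89, SE 0.46, adjusted p = 3.65e-08). Timp3, an inhibitor of matrix proteases, had 11.6 and 8.01 normalised CPM in Camk2a libraries against 141.5 and 173 in Gad2 libraries (log2 difference −3.99, SE 0.35, adjusted p = 1.89e-07), and it lies within another counted gene, Syn3. Bcan, the proteoglycan brevican, was lower by a smaller step, at −2.08 (adjusted p = 1.47e-04). Ncan, the proteoglycan neurocan, was the member that was higher, with 134 and 142 normalised CPM in Camk2a libraries against 35.4 and 41.4 in Gad2 libraries (log2 difference 1.83, SE 0.30, adjusted p = 1.41e-04).

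Axon guidance genes split, with 12 of 29 tested members higher (9, 8, 7 and 8 without Camk2a replicate 1, Camk2a replicate 2, Gad2 replicate 1 and Gad2 replicate 2) and 4 lower. Nrp1, a receptor for class 3 semaphorins, had 39.6 and 35 normalised CPM in Camk2a libraries against 3.08 and 3.94 in Gad2 libraries (log2 difference 3.33, SE 0.43, adjusted p = 1.18e-05). Epha4, an ephrin receptor, had 145 and 139.7 normalised CPM in Camk2a libraries against 21.5 and 19.7 in Gad2 libraries (log2 difference 2.79, SE 0.28, adjusted p = 6.61e-07). Both receptors were higher in the Camk2a libraries without overlap. Sema3c, a secreted semaphorin, had 8.21 and 5.01 normalised CPM in Camk2a libraries against 108 and 84.8 in Gad2 libraries (log2 difference −3.82, SE 0.34, adjusted p = 1.61e-07). Robo1, a receptor for Slit proteins, had 69.1 and 80.6 normalised CPM in Camk2a libraries against 254 and 267 in Gad2 libraries (log2 difference −1.80, SE 0.23, adjusted p = 8.22e-06). Sema3c and Robo1 were lower in both Camk2a libraries.

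Trophic factors and their receptors had 5 of 18 tested members higher (3, 4, 5 and 4 without Camk2a replicate 1, Camk2a replicate 2, Gad2 replicate 1 and Gad2 replicate 2) and 9 lower, with a median of −1.19. Bdnf, brain-derived neurotrophic factor, had 232 and 240.3 normalised CPM in Camk2a libraries against 26.1 and 15.8 in Gad2 libraries (log2 difference 3.55, SE 0.31, adjusted p = 1.39e-07). Nrn1, a membrane-anchored factor induced by activity, had 388 and 296 normalised CPM in Camk2a libraries against 12.3 and 8.87 in Gad2 libraries (log2 difference 5.04, SE 0.38, adjusted p = 1.23e-08). Both were higher in each Camk2a library. Igf1, insulin-like growth factor 1, had 2.41 and 0.501 normalised CPM in Camk2a libraries against 63 and 99.6 in Gad2 libraries (log2 difference −5.70, SE 0.48, adjusted p = 5.59e-08). Igf1 was thus ordered oppositely to Bdnf, without overlap. Ntrk2, the receptor for Bdnf, had 346 and 293 normalised CPM in Camk2a libraries against 397 and 337 in Gad2 libraries and did not pass the test. Acvr1c, an activin receptor, was higher by 4.11, and Fgf9 and Fgfr2 were lower, at −1.45 and −2.68.

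Energy metabolism gave smaller differences. Nuclear genes of the respiratory chain had 0 of 37 tested members higher and 10 lower, with a median of −0.48, and the lower count was 2, 2, 5 and 3 without Camk2a replicate 1, Camk2a replicate 2, Gad2 replicate 1 and Gad2 replicate 2. The larger members were Cox6a2, a cytochrome oxidase subunit of muscle and of Pvalb interneurons, with 1.45 and 0 normalised CPM in Camk2a libraries against 92.3 and 104 in Gad2 libraries (log2 difference −6.85, SE 0.50, adjusted p = 9.90e-09), and Ppargc1a, a coactivator that drives mitochondrial genes, with 39.1 and 41.5 normalised CPM in Camk2a libraries against 157 and 183 in Gad2 libraries (log2 difference −2.08, SE 0.23, adjusted p = 2.86e-06). Every other member had a smaller difference. Glycolysis had 3 of 16 tested members higher and 0 lower, so the share called was near the 21.2% of all tested genes. Ldha, the lactate dehydrogenase subunit that favours lactate, had 267 and 207 normalised CPM in Camk2a libraries against 55.4 and 50.3 in Gad2 libraries (log2 difference 2.17, SE 0.28, adjusted p = 1.22e-05). Pfkl, a phosphofructokinase, had 113 and 122 normalised CPM in Camk2a libraries against 21.5 and 27.6 in Gad2 libraries (log2 difference 2.23, SE 0.27, adjusted p = 6.29e-06), and its isozyme Pfkp was higher by 1.33. Ldhb, the other lactate dehydrogenase subunit, had 345 and 359 normalised CPM in Camk2a libraries against 687 and 529 in Gad2 libraries and did not pass the test.

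RNA-binding proteins of neurons had 11 of 32 tested members higher (8, 7, 6 and 6 without Camk2a replicate 1, Camk2a replicate 2, Gad2 replicate 1 and Gad2 replicate 2) and 5 lower (3, 3, 3 and 3 in the same 4 fits). Celf1, a splicing and decay regulator, had 181 and 161 normalised CPM in Camk2a libraries against 50.7 and 54.2 in Gad2 libraries (log2 difference 1.70, SE 0.30, adjusted p = 3.64e-04). Khdrbs3, a STAR family splicing factor, had 615 and 645 normalised CPM in Camk2a libraries against 234 and 242 in Gad2 libraries (log2 difference 1.41, SE 0.25, adjusted p = 3.35e-04). These 2 were higher in both Camk2a libraries. Msi2, a Musashi protein, had 115 and 97.6 normalised CPM in Camk2a libraries against 429 and 345 in Gad2 libraries (log2 difference −1.86, SE 0.28, adjusted p = 5.47e-05). Qk, a STAR family protein known mainly from glia, had 25.6 and 20.5 normalised CPM in Camk2a libraries against 90.7 and 96.6 in Gad2 libraries (log2 difference −2.02, SE 0.32, adjusted p = 1.14e-04). Msi2 and Qk were lower in both. Ptbp2, the neuronal polypyrimidine tract-binding protein, had 65.2 and 60.1 normalised CPM in Camk2a libraries against 40.0 and 48.3 in Gad2 libraries and did not pass the test (log2 difference 0.49, adjusted p = 0.205). Genes of mRNA 3'-end processing gave a single call, with 1 of 19 tested members higher and 0 lower. That gene was Cpsf2, a cleavage factor subunit, with 244 and 194 normalised CPM in Camk2a libraries against 106 and 127 in Gad2 libraries (log2 difference 0.90), and its call was lost without Camk2a replicate 1 (adjusted p = 0.186), without Gad2 replicate 1 (adjusted p = 0.148) and without Gad2 replicate 2 (adjusted p = 0.0675).

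Genes outside the lists were named by the size of their difference. Among the 15 largest higher genes were Gcnt4, a glycosyltransferase, with 137 and 125 normalised CPM in Camk2a libraries against 4.61 and 2.96 in Gad2 libraries (log2 difference 5.13, SE 0.40, adjusted p = 3.53e-08), Rprm, a cell-cycle gene that marks deep-layer neurons, at 5.17, Il17ra, a receptor for interleukin 17, at 4.95, and Hkdc1, a hexokinase, at 5.62. Igfbp6, a binding protein of insulin-like growth factors, had 73.4 and 74.6 normalised CPM in Camk2a libraries against 4.61 and 0.986 in Gad2 libraries (log2 difference 4.87, SE 0.49, adjusted p = 7.32e-07). On the lower side, Akr1c18, a steroid-metabolising reductase, had 0.966 and 2.00 normalised CPM in Camk2a libraries against 237 and 209 in Gad2 libraries (log2 difference −7.12, SE 0.39, adjusted p = 5.73e-10). Among abundant genes, Sox2, a factor of neural progenitors that some mature neurons keep, had 6.76 and 5.01 normalised CPM in Camk2a libraries against 208 and 268 in Gad2 libraries (log2 difference −5.31, SE 0.34, adjusted p = 4.23e-09). Lbh, a transcriptional regulator, had 29.9 and 26 normalised CPM in Camk2a libraries against 852 and 891 in Gad2 libraries (log2 difference −4.95, SE 0.31, adjusted p = 1.40e-09). In all of these the 4 libraries split by driver without overlap.

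Microglial markers summed to 0.00489% and 0.00502% of all counts in the Camk2a libraries, against 0.0159% and 0.0134% in the Gad2 libraries, and 3 of 16 tested members were lower in the Camk2a libraries (1, 3, 2 and 1 without Camk2a replicate 1, Camk2a replicate 2, Gad2 replicate 1 and Gad2 replicate 2), with C1qc, a complement component of microglia, at 2.90 and 5.01 normalised CPM in Camk2a libraries against 26.1 and 28.6 in Gad2 libraries (log2 difference −2.77). Selplg and Siglech, microglial surface genes, had no count in any of the 4 libraries, and Cx3cr1, the fractalkine receptor of microglia, had 0 and 1 counts in the Camk2a libraries against 1 and 4 in the Gad2 libraries. The part of microglial RNA in genes lower in the Camk2a libraries was not tested. Oligodendrocyte and precursor lists had no called member, of 8 and 4 tested. The filter used all 8 libraries, so some members of the glial and thalamic lists were tested with few counts in the 4 compared. The lack of a call says little for them. In each of the 4, Olig1, Olig2 and Sox10 of the precursor list had 0 to 3 counts. Tcf7l2, Lef1, Prkcd and Plekhg1 of the thalamic list had 0 to 5. Of the 16 microglial markers 6 had 5 or fewer counts over the 4 libraries. Mbp, myelin basic protein, had 202 and 225 normalised CPM in Camk2a libraries against 219.9 and 176 in Gad2 libraries. The choroid and ependymal list had 1 of 3 tested members lower (1, 0, 0 and 0 in the same 4 fits) and the vascular list 1 of 2 (0, 0, 0 and 0 in the same 4 fits). The vascular call was Bsg, and 10 of the 14 listed vascular genes had 5 or fewer counts over the 4 libraries. Of 10 listed hippocampal markers 2 were tested, and the member called, Wfs1, is also in the upper-layer list. None of 5 tested sex-linked genes was called. Xist had 29 and 36 normalised CPM in Camk2a libraries against 44.6 and 17.7 in Gad2 libraries. It had 0 in the Gfap and Cx3cr1 libraries, while Ddx3y was counted in all 8. Any effect of this on the spread was not tested. Thalamic markers had 1 of 7 tested members higher and 1 lower (lower counts 1, 1, 2 and 0 in the same 4 fits), hippocampal markers 1 of 2 higher.

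The pan-neuronal, cytoskeletal and cholesterol synthesis lists had medians between −0.08 and 0.30. They still held calls, and 21.2% of all tested genes were called. Of 15 tested pan-neuronal genes 3 were higher (2, 3, 2 and 1 without Camk2a replicate 1, Camk2a replicate 2, Gad2 replicate 1 and Gad2 replicate 2) and 1 lower (1, 0, 0 and 1 in the same 4 fits), with a median of −0.08. Cholesterol synthesis had 1 of 16 tested members higher (0, 0, 0 and 0 in the same 4 fits) and 0 lower. Cytoskeletal genes had 4 of 19 higher (2, 4, 2 and 2 in the same 4 fits) and 2 lower (1, 1, 1 and 1 in the same 4 fits). Nefm, a neurofilament subunit of projecting axons, had 241 and 234 normalised CPM in Camk2a libraries against 32.3 and 58.2 in Gad2 libraries (log2 difference 2.34, SE 0.27, adjusted p = 3.82e-06), and Ank1, an ankyrin that links the membrane to spectrin, had 22.2 and 20.5 normalised CPM in Camk2a libraries against 211 and 181 in Gad2 libraries (log2 difference −3.18, SE 0.26, adjusted p = 4.23e-08).

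Not every listed gene could be read. Of 988 genes in the lists 224 were not tested, and 80 had no count in any of the 4 libraries. Gapdh, a glycolytic enzyme of every cell, had 1 count over the 4 libraries, and Grin2a, an NMDA receptor subunit, and Nos1, the neuronal nitric oxide synthase, had none, so a gene listed at 0 here is not thereby shown to be unexpressed. These 3 genes, and Cx3cr1, Selplg, Siglech, Aldh1l1 and Npcd above, were picked after their values were seen. Strand use is not stated in the sources used here. A total of 111 of the 450 genes that the naming rule picked overlap another counted gene, among them Dlx1, Dlx6os1, Slc32a1, Gabra5 and Araf, whose counts are uncertain to that extent.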

How the data were processed

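The authors deposited whole-number counts per gene for each PAPERCLIP library, and the tests start from them. Novoalign and cutadapt are named for these libraries per the submitters' processing notes, with the build mm10. Per the labels' protocols the linker carries a random barcode. Collapse of barcoded duplicates, assignment of reads to genes and strand use are not stated in the sources used here.

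Groups were taken from the sample titles. edgeR 4.0.16 quasi-likelihood fits (R 4.3.3; filterByExpr, TMM scaling, Benjamini-Hochberg adjustment over all 9421 genes tested of 23871) used 8 libraries as 4 group means, with 4 residual degrees of freedom. SE was taken from the F statistic. Bounds set genes without counts at 3 counts over the group and cover counting error only. The fit was tested on simulated data. Alternatives were RLE scaling, total counts only, DESeq2 1.42.0, other filters, other sets of libraries, a replicate block, thinning to 630475 counts and leaving out each library.

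The 60 gene lists (988 genes) and the rule for named genes were chosen with earlier results of these data known. The rule takes Camk2a, Slc17a7, Gad1, Gad2, Araf, Ptbp1, Ptbp2 and Pabpc1; the 15 largest differences in each direction among called genes whose average log2 CPM is 4 or more, without predicted or mitochondrial genes or genes at 0 in a group; genes of average log2 CPM 8 or more with the largest differences; genes without counts in a group, as bounds; and from each list up to 6 called members per direction by p and up to 3 not called by level. A part of these is given, and some are not reported here.

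Symbols were matched to RefSeq for 23787 of 23871 genes. The replicate numbers were not taken to pair libraries: deviations of same-numbered libraries from their group means correlated at 0.106 over 5879 genes, with 2 replicates per group.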

Additional observations from a re-analysis of the deposited data

How the results depend on the processing

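The fit used in the results called 2001 genes, 1097 higher and 904 lower in the Camk2a libraries. No call had the opposite sign under any of the 18 alternatives. Fitting only the 4 neuronal libraries raised the calls to 2871 of 8542 genes tested, with 1449 higher and 1422 lower. The 6 cortex libraries gave 2703 calls among 9539 genes tested, 1369 higher and 1334 lower. Leaving out 1 library at a time, including those used for the spread alone, gave 1026 to 2650 calls, of which 530 to 1415 were higher and 496 to 1284 lower. The fewest came without Gad2 replicate 2. Leaving out a Cx3cr1 library gave the most, and leaving out a library left its group with 1, assumed to vary like the other groups. Libraries of the comparison itself gave 1127 and 1180 calls without Camk2a replicate 1 and 2, and 1209 and 1026 without Gad2 replicate 1 and 2. Thinning the 4 libraries to the shallowest total gave 1540 calls, so depth limits their number, and DESeq2 gave 1807. With the replicate number as a block 2101 genes were called, 1155 higher and 946 lower, of which 1967 were among those calls, and the numbers were not taken to pair the libraries. Over the 18 alternatives, lower members of the respiratory chain list numbered 2 to 19 against 10, and higher members of the postsynaptic scaffold list 8 to 18 against 13.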

Other observations

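Called genes were annotated as longer than tested genes at large. The median RefSeq gene span was 38449 bases for genes higher in the Camk2a libraries, 35468.5 bases for genes lower there and 26980 bases over all tested genes with a position. Genes on the X chromosome made up 2.1% of higher genes (23), 4.42% of lower genes (40) and 3.43% of all tested genes (323). These are descriptions with no test, and span was not tested against the number of counts per gene. Over tested genes, 92 had no count in the Camk2a libraries, which held the larger totals, and 179 had none in the Gad2 libraries.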
